A study of Homo sapiens with 4 samples.

Results

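The chemokine cluster of chromosome 4 was examined for chromatin loops and domains in Hi-C libraries of MDA-MB-231, an established human cell line of triple-negative breast cancer. Hi-C crosslinks chromatin, ligates fragments that lie close together and counts the ligated pairs. A loop is a pair of anchors with more contacts than their surroundings, and a domain is a stretch whose parts contact each other more than their flanks. Loops were taken where at least 1 anchor lay between 74.4 Mb and 75.4 Mb of chromosome 4 in GRCh37 (hg19), and domains where they overlapped that window, so contact strength played no part in the choice. The rule found 22 and 29 loops in replicates 1 and 2 of the vehicle and 22 and 16 in those of THZ1. All loops of these libraries numbered 20768, 24219, 17222 and 15066 in the same order, so the cluster held 89 of 77275 calls. When loops whose anchor midpoints lay within 20 kb of each other at both ends were counted as 1 locus, the 89 calls made 35 of 34447 loci.

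Wild-type cells received DMSO (vehicle) or 75 nM THZ1 for 48 h, with 2 libraries per condition. THZ1 is a covalent inhibitor of CDK7, the kinase of TFIIH that phosphorylates RNA polymerase II. The series describes the libraries as technical replicates, so every spread below is the spread between 2 libraries of a condition and not between cultures known to be separate. With 2 libraries against 2, the exact permutation test over 6 splits cannot give a p below 0.333. The model is a single cell line at a single dose and time, and the label of the line could not be checked against marker genes because the lists hold contacts and no expression.

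The window is named for 8 genes, and GENCODE 44 placed all 8 in it. CXCL8, CXCL6, CXCL1, CXCL5, CXCL3 and CXCL2 encode CXC chemokines that bind the receptors CXCR1 and CXCR2 and draw neutrophils into tissue. Their transcription is a textbook target of NF-kB, and CXCL8 (interleukin 8) is secreted by many carcinoma cells. EREG (epiregulin) and AREG (amphiregulin) encode EGF-family ligands of the receptor EGFR. Between and beside them lie PF4, PF4V1 and PPBP, chemokine genes of platelets and their precursors, as well as RASSF6, MTHFD2L and EPGN. Many loops in mammalian cells form where cohesin stops at CTCF, a zinc finger protein that binds DNA, and others join promoters with enhancers.

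The promoters of the 6 named chemokine genes shared a stretch that EREG and AREG lacked, and 2 of those promoters lay in loop anchors. In the RefSeq promoter table (GRCh38.p14, 250 bases before to 50 bases after each start), the letters GGAATTTCC, a form of the NF-kB motif, were searched on both strands. All 6 of these promoters held them, between 77 and 91 bases upstream of the start, against 162 of 35116 promoter entries (0.461%). The 6 are not independent cases. The stretches of CXCL6 and CXCL5, and those of CXCL1, CXCL2 and CXCL3, are much alike beyond the letters too. The entries of EREG, AREG, PF4V1, PPBP, EPGN, RASSF6, MTHFD2L and BTC did not hold these letters, and PF4 had no entry. The 61 bases around them are printed in the direction of transcription, 5′ to 3′, with the letters in capitals, because the 6 named chemokine genes held them and the EGF-family genes EREG and AREG did not.
CXCL8: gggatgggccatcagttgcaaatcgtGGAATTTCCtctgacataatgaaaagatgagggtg
CXCL3: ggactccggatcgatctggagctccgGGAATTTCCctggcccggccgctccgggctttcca
CXCL2: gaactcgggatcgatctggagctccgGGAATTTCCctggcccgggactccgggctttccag
CXCL1: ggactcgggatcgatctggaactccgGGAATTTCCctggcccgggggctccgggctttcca
CXCL6: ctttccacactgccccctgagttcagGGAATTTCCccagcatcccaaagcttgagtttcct
CXCL5: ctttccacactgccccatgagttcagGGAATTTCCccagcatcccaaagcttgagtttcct
Each stretch matched chromosome 4 of GRCh37 exactly once. The CXCL8 stretch lies at chr4:74606169-74606229 on the forward strand and was inside an anchor of 7 cluster loops. The CXCL3 stretch lies at chr4:74904450-74904510 on the reverse strand and was inside an anchor of 6. The other 4 stretches were inside no anchor of the cluster. A match of letters is a description of the sequence and says nothing of whether NF-kB was bound.

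Loop numbers in the cluster were lower with THZ1 on average but overlapped between conditions. The means were 25.5 ± 4.95 loops with vehicle and 19 ± 4.24 with THZ1 (SD, n = 2), a ratio of 1.34 (exact permutation p = 0.667). Over all loops of the libraries the ratio of vehicle to THZ1 was 1.39. As a share of each list, cluster loops made up 0.106% and 0.120% of all loops with vehicle and 0.128% and 0.106% with THZ1, which overlapped as well (exact permutation p = 0.667).

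Anchors were called at 5, 10 or 25 kb, and the widest were listed more often with THZ1. Vehicle replicate 1 had 16 loops with 5 kb anchors, 6 with 10 kb anchors and 0 with 25 kb anchors. For vehicle replicate 2 these numbers were 20, 8 and 1, for THZ1 replicate 1 they were 14, 5 and 3, and for THZ1 replicate 2 they were 9, 3 and 4. Loops with 25 kb anchors thus averaged 0.5 ± 0.707 with vehicle and 3.5 ± 0.707 with THZ1 (SD, n = 2, exact permutation p = 0.333), without overlap. Among all loops, 25 kb anchors took 12.9% and 11.8% of the vehicle lists and 17.5% and 19.2% of the THZ1 lists.

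The share of small loops was about the same in all 4 cluster lists. Loops of 90 kb or less, the size that the study uses for subloops, were 7 of 22 (31.8%, 95% Wilson interval 16.4% to 52.7%) in vehicle replicate 1 and 9 of 29 (31.0%, 17.3% to 49.2%) in vehicle replicate 2. With THZ1 they were 7 of 22 (31.8%, 16.4% to 52.7%) and 5 of 16 (31.3%, 14.2% to 55.6%). Intervals cover counting error only. Over all loops the share was 37.3% and 36.8% for the vehicle libraries and 26.2% and 25.5% for the THZ1 libraries. The cluster's share minus that of its library was -5.60 ± 0.215 percentage points with vehicle and 5.67 ± 0.0771 with THZ1 (SD, n = 2, exact permutation p = 0.333). The values of both conditions did not overlap. Every library's share over all loops lay inside the Wilson interval of its 16 to 29 cluster loops. Within 1 anchor width the cluster's shares were less alike, but they rested on few loops. With 5 kb anchors alone the cluster's share of small loops was 37.5% and 35% for vehicle (6 of 16 and 7 of 20). For THZ1 it was 42.9% and 44.4% (6 of 14 and 4 of 9). The difference was 7.40 percentage points without overlap (exact permutation p = 0.333). Over all loops with 5 kb anchors the shares were 50.7% and 48.8% (vehicle) and 38.9% and 38.7% (THZ1), lower with THZ1. With 10 kb anchors alone, where each cluster list held 1 or 2 small loops, the difference was 5.83 points with overlap (exact permutation p = 0.667).

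Cluster loops were longer than the typical loop of their library. Median size was 235 kb and 310 kb with vehicle and 282.5 kb and 292.5 kb with THZ1, against 140 kb in both vehicle lists and 200 kb in both THZ1 lists over all loops. Among loops of 1 anchor width this did not hold in every library. With 5 kb anchors alone the cluster medians were 150 kb and 285 kb (vehicle) and 155 kb and 120 kb (THZ1), against 90, 95, 125 and 125 kb over all loops in this order, so THZ1 replicate 2 lay below its list. Vehicle and THZ1 medians in the cluster overlapped (272.5 ± 53.0 kb against 287.5 ± 7.07 kb, SD, n = 2, exact permutation p = 1). On the rest of chromosome 4 the medians were 180 kb in both vehicle lists and 260 kb and 270 kb with THZ1.

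**Figure D1:**
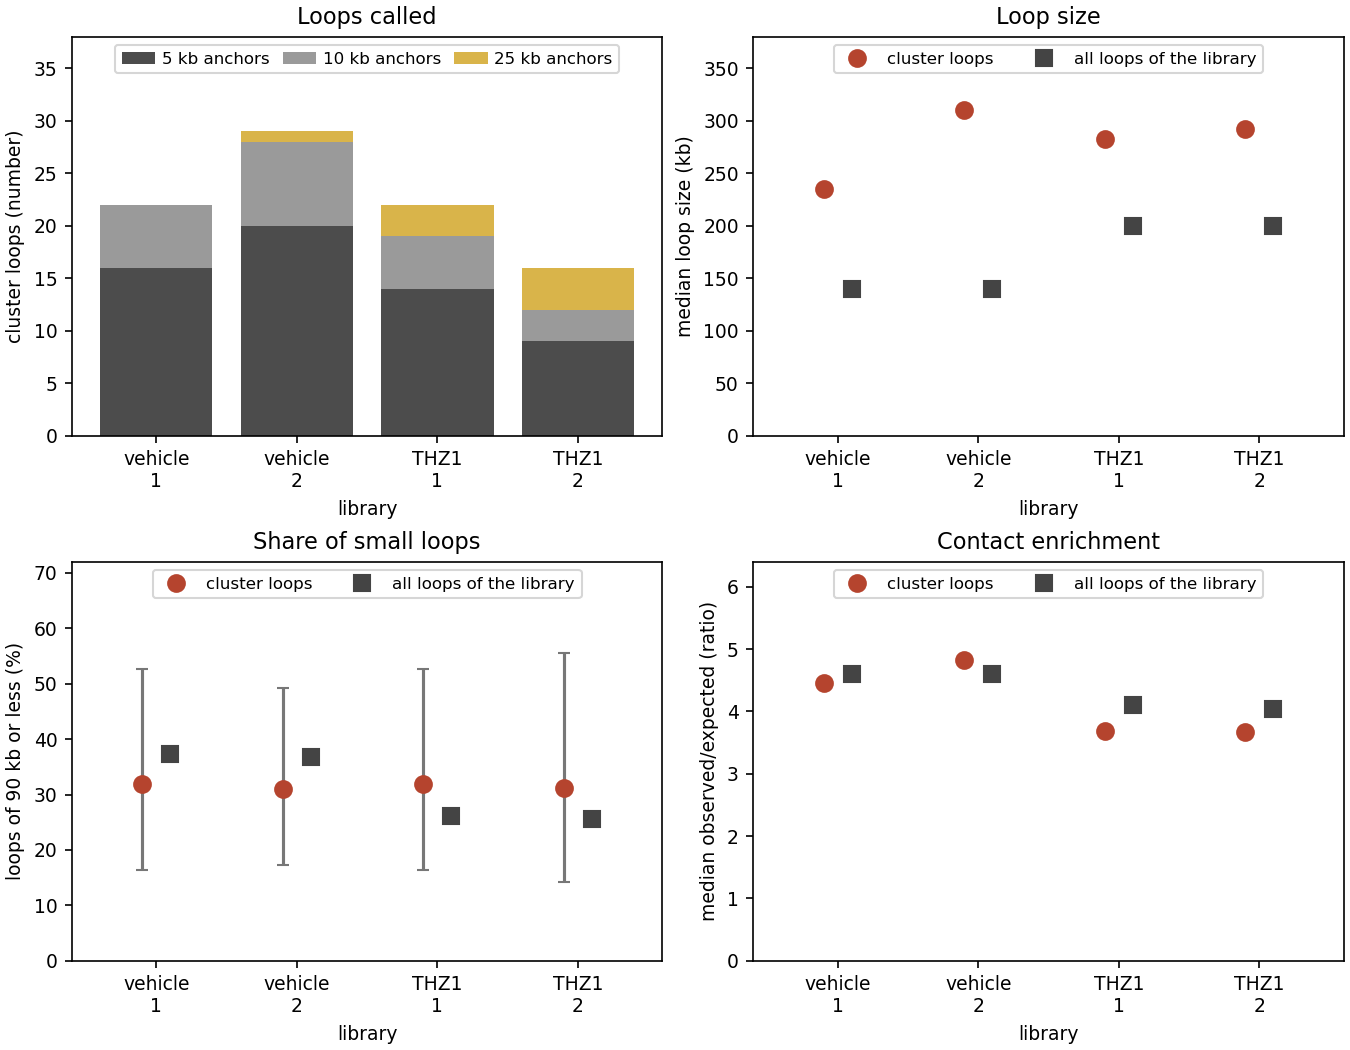
Number of cluster loops by anchor width, median loop size in kb, share of loops of 90 kb or less in percent (bars: 95% Wilson intervals) and median observed/expected ratio in each of the 4 libraries, for cluster loops (circles) and all loops (squares). The cluster's share of small loops lies between 31.0% and 31.8% in every library, that of all loops between 25.5% and 37.3%, and 7 of the 8 loops with 25 kb anchors are in the THZ1 lists.

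The loops fell into a chemokine side and an EREG side, and no loop joined them. Of the 89 calls, 0 crossed the 25 kb between positions 75025000 and 75050001, which lies inside MTHFD2L. This gap was noticed in the lists and is given as a description. The chemokine side, from the ANKRD17 and COX18 region before RASSF6 to the front part of MTHFD2L, had 13 and 20 loops with vehicle and 14 and 9 with THZ1. The EREG side, from the rear part of MTHFD2L as far as RCHY1, beyond BTC, had 9 and 9 loops with vehicle and 8 and 7 with THZ1. EREG-side counts did not overlap between conditions (9 ± 0 against 7.5 ± 0.707, SD, n = 2, exact permutation p = 0.333), and those of the chemokine side did (16.5 ± 4.95 against 11.5 ± 3.54, exact permutation p = 0.667). As a share of each list the EREG side went the other way, with 0.0402% ± 0.00437 of all loops for vehicle against 0.0465% ± 7.09e-06 for THZ1 (SD, n = 2, exact permutation p = 0.333), also without overlap. Both anchors lay inside the window for 62 of the 89 calls.

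The domain lists placed a boundary close to that gap. Each library listed exactly 1 domain that overlapped the window. In vehicle replicate 1 it ran from 74160001 to 75020000 (860 kb), and in the other 3 libraries from 74170001 to 75020000 (850 kb). It held all 6 chemokine genes and ended where the last anchor of the chemokine side began (chr4:75020001-75025000), an anchor that THZ1 replicate 1 did not list. No domain was listed over EREG or AREG in any library. Arrowhead's corner score of this domain, which measures how sharply its corner stands out, was 0.784 and 0.850 with vehicle and 0.987 and 0.977 with THZ1. Both THZ1 scores were above both vehicle scores (0.982 ± 0.00689 against 0.817 ± 0.0473, SD, n = 2, exact permutation p = 0.333). In all 4 libraries the score was below the library's median domain score, which was 1.02 and 1.06 with vehicle and 1.12 and 1.11 with THZ1.

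**Figure D2:**
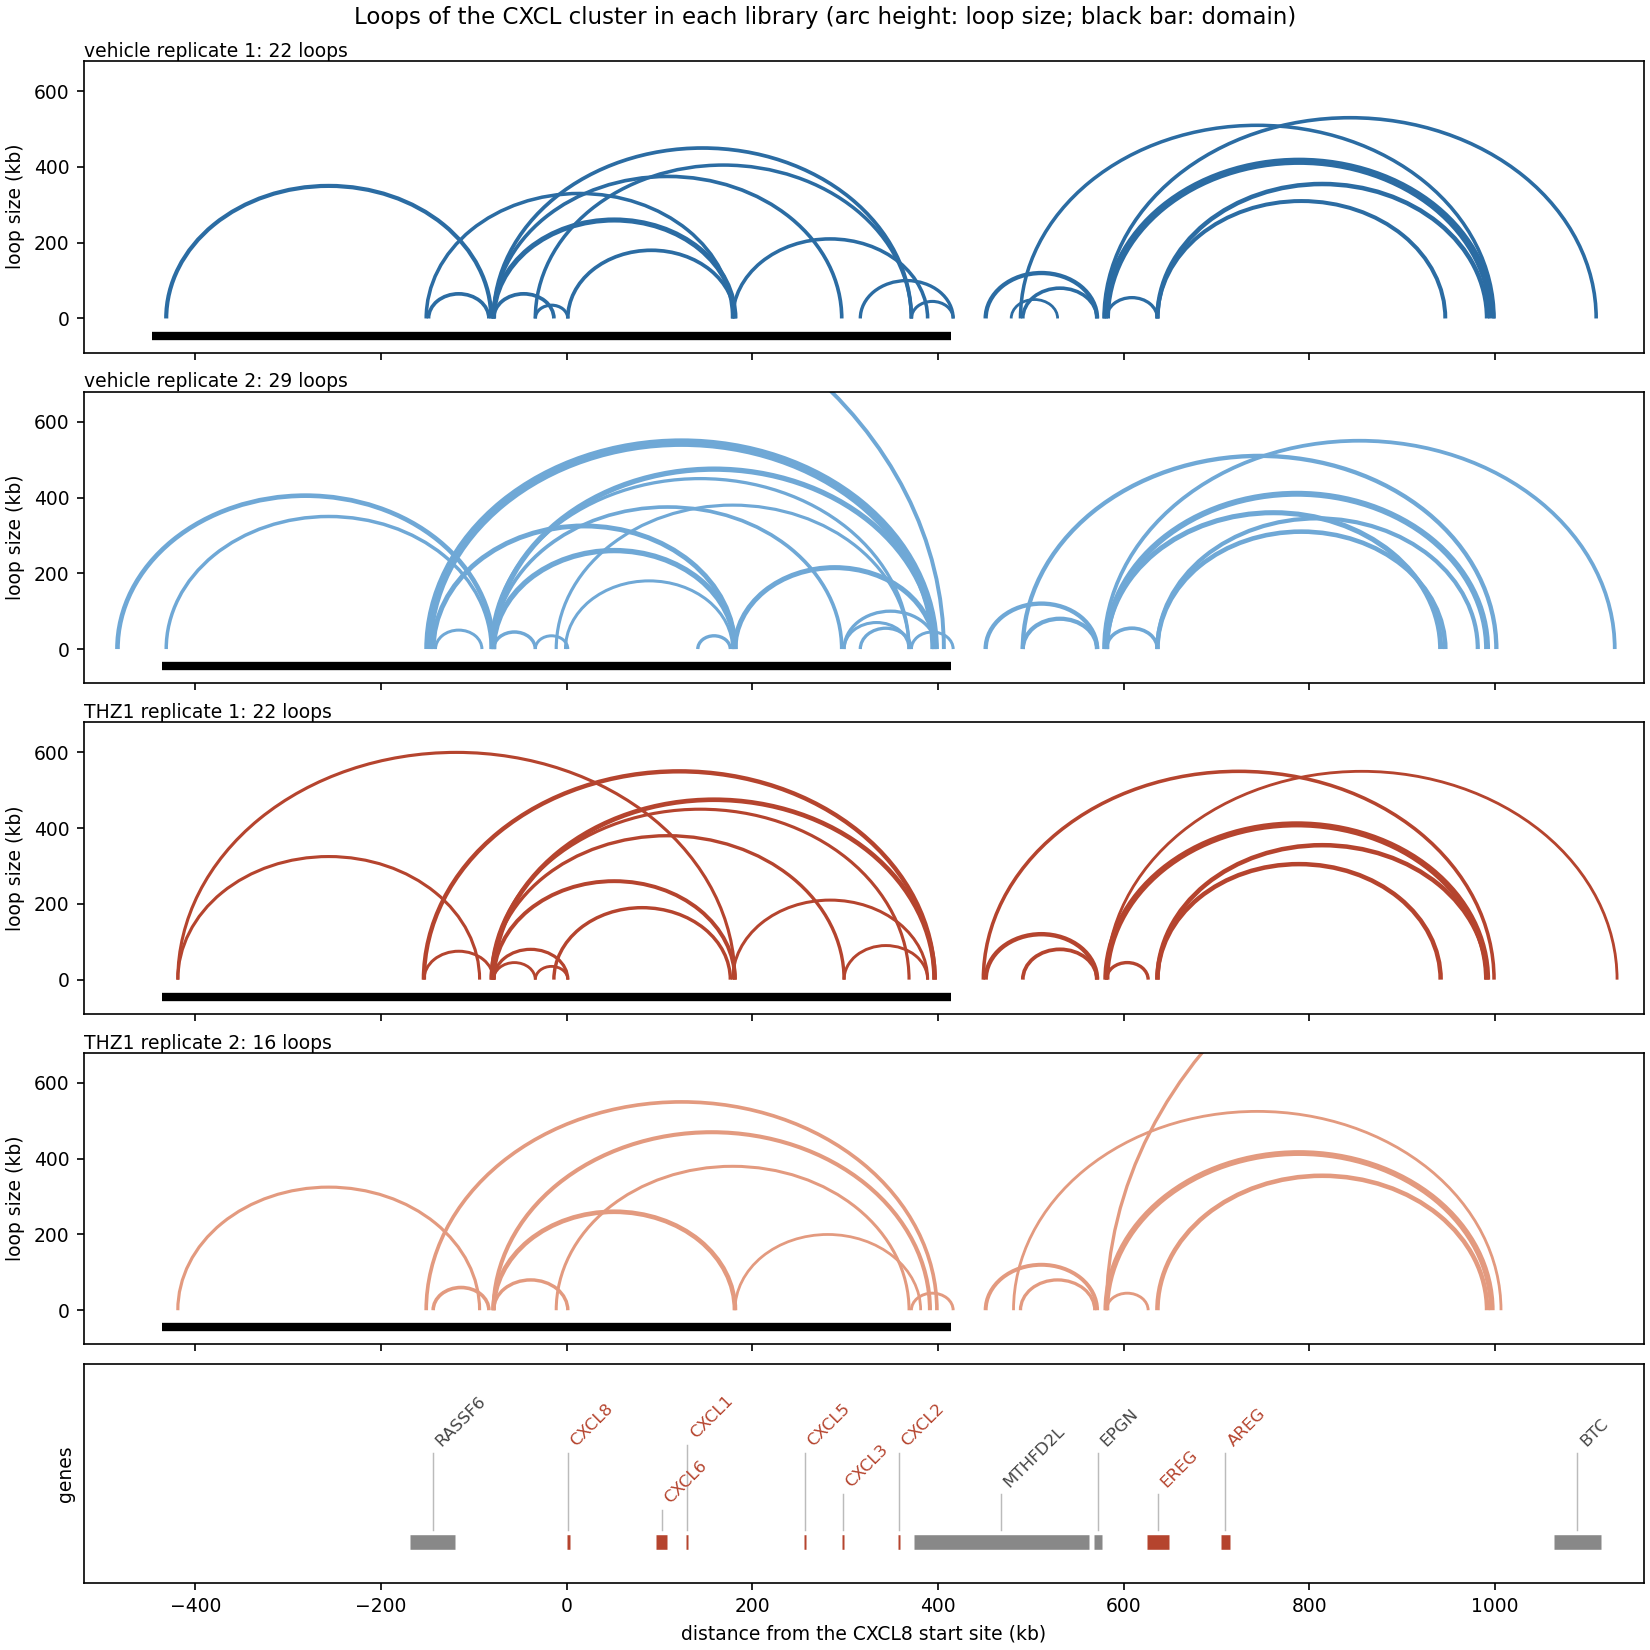
Cluster loops of each library drawn as arcs over the distance from the CXCL8 start site in kb, with arc height equal to loop size in kb, line width rising with the observed/expected ratio, the overlapping domain as a black bar and genes below (red: the 8 named genes). The arcs of 1075 kb in vehicle replicate 2 and 1225 kb in THZ1 replicate 2 leave the frame. The arcs form a chemokine group and an EREG group with no arc between them, and the domain ends at the same position in all 4 libraries, before the first arc of the EREG group.

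Some anchors recurred among the cluster loops. Anchor positions used by at least 5 of the 89 calls, taken within 7.5 kb of the most used 5 kb anchor, were called hubs and given letters. There were 14 hubs, 83 of the 89 calls had an anchor at a hub, and 58 had both. These counts follow in part from the definition, since a locus called in several libraries counts once for each of them, and the same share was not computed over all loops. On the chemokine side, hub A (chr4:74450001-74455000) overlapped an exon of RASSF6, a RAS-association domain gene, and was used by 9 loops. Hub B (chr4:74525001-74530000) lay between genes, 38.7 kb beyond RASSF6 and 76.2 kb before CXCL8, and with 25 loops it was the most used anchor of the cluster. Hub C (chr4:74570001-74575000), with 6 loops, also lay between genes, 31.2 kb before CXCL8. Hub D (chr4:74605001-74610000) covered the whole of CXCL8, start site included, and was used by 7 loops. Hub E (chr4:74785001-74790000), with 15 loops, lay between CXCL1 and PF4, 48.0 kb from the former and 56.5 kb from the latter. Hub F (chr4:74900001-74905000) covered the whole of CXCL3 and had 6 loops. Hub G (chr4:74975001-74980000), with 11 loops, held the annotated start of MTHFD2L, a gene of mitochondrial folate metabolism, 10.1 kb from CXCL2. Hub H (chr4:75000001-75005000), also with 11 loops, was intronic in MTHFD2L.

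On the EREG side, hubs P (chr4:75055001-75060000, 5 loops) and Q (chr4:75095001-75100000, 6 loops) were intronic in MTHFD2L as well. Hub R (chr4:75175001-75180000, 8 loops) overlapped an exon of EPGN, which encodes the EGF-family ligand epigen. Hub S (chr4:75185001-75190000, 13 loops) lay 2.50 kb beyond EPGN and 40.9 kb before EREG. Hub T (chr4:75240001-75245000, 9 loops) was intronic in EREG. Hub U (chr4:75595001-75600000, 10 loops) lay between genes, 70.0 kb before BTC, the betacellulin gene. Hub B kept the highest count in every library, with 6 and 8 loops with vehicle and 7 and 4 with THZ1. Hub R had 2 loops in each library, and hub S had 3 and 4 with vehicle and 3 and 3 with THZ1. Hubs C and F had 0 loops in THZ1 replicate 2 but 2 loops each in THZ1 replicate 1, so the THZ1 libraries differed there from each other.

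**Figure D3:**
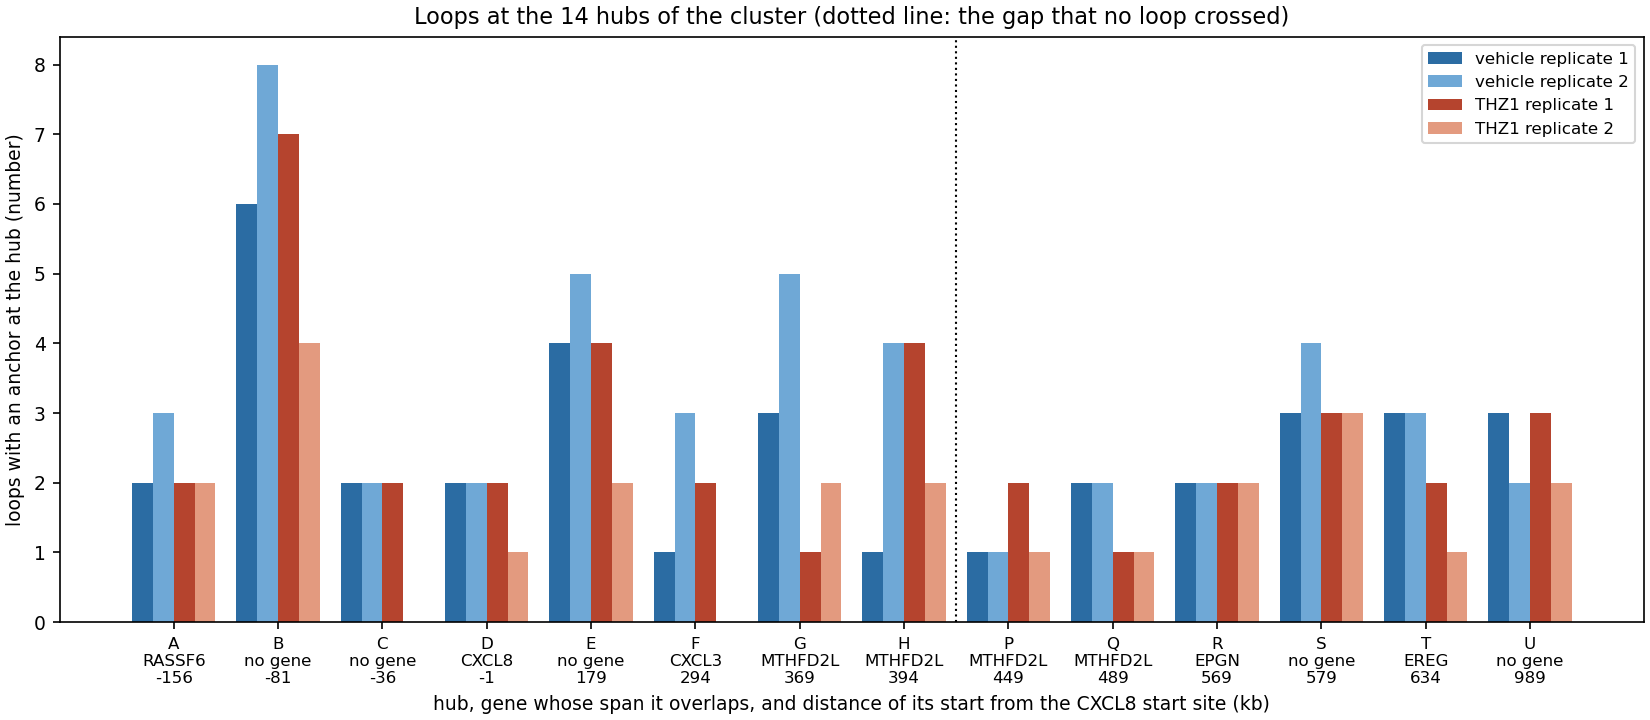
Number of loops with an anchor at each of the 14 hubs, by library (colours), with hubs in order of position, the gene they overlap and their distance from the CXCL8 start site in kb. The dotted line marks the gap that no loop crossed. Hub B, between RASSF6 and CXCL8, has the most loops in all 4 libraries, from 4 to 8.

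Part of the CTCF motif, read as CCA, any 2 bases, AG, any 2 bases and GGC, was searched on both strands of the anchors in GRCh37. It occurred in 16 of the 62 distinct cluster anchors (25.8%) and in 22012 of the 61322 distinct anchors of all lists (35.9%). By width, the shares were 5 of 30 cluster anchors against 25.5% of all anchors at 5 kb, 7 of 21 against 37.8% at 10 kb, and 4 of 11 against 58.8% at 25 kb. A forward match in the first anchor with a reverse match in the second was found for 1 of the 89 cluster calls (1.12%) and for 9.19% of all calls. In the central 5 kb of the hubs, B, G and R held 1 match each, T held 2 and the others held 0, among them E, S, H and U with 15, 13, 11 and 10 loops. Outside these, 4 more matches lay in cluster anchors. They began at position 74177381 (in anchors of 5 loops), at 74459549 beside hub A (4 loops), at 75094604 just before hub Q (3 loops) and at 75135588 (1 loop). The hub matches are printed 5′ to 3′ on the strand of the match, with the matched letters in capitals, to show the sequence of the matches.
Hub B: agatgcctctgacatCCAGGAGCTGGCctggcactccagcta
Hub G: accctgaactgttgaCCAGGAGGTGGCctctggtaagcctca
Hub R: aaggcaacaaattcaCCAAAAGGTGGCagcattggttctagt
Hub T, first: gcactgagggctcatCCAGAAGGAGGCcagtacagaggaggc
Hub T, second: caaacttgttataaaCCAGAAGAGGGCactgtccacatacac
These stretches lie at chr4:74526347-74526388 (forward), chr4:74978877-74978918 (forward), chr4:75177597-75177638 (reverse), chr4:75240045-75240086 (reverse) and chr4:75242769-75242810 (forward). Binding of CTCF was not measured here.

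Anchors touched 3 of the 8 named genes, CXCL8, CXCL3 and EREG. Over the whole annotation, an anchor of at least 1 library touched 71.3% of 20176 protein-coding genes. Of the other 5 members, CXCL2 lay 5.09 kb from the nearest anchor, CXCL1 7.98 kb, CXCL6 30.2 kb, CXCL5 35.6 kb and AREG 65.9 kb.

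CXCL8 was at an anchor of 2 loops in each vehicle library, 2 in THZ1 replicate 1 and 1 in THZ1 replicate 2. The short loop from hub C to CXCL8, 35 kb long, had 36 contacts in vehicle replicate 1 (3.06 times the expected count), 33 in vehicle replicate 2 (2.55 times) and 37 in THZ1 replicate 1 (2.19 times). It was not listed in THZ1 replicate 2. The 80 kb loop from hub B to CXCL8 was listed at CXCL8 itself in both THZ1 libraries, with 30 contacts each (3.31 and 3.88 times the expected count), while vehicle replicate 1 listed a loop from hub B to chr4:74590001-74595000, before CXCL8, with 34 contacts (4.71 times). The 180 kb loop from CXCL8 to hub E had 15 contacts in vehicle replicate 1 (4.63 times) and 33 at 10 kb anchors in vehicle replicate 2 (2.69 times). THZ1 replicate 1 had a loop to the same hub from chr4:74590001-74595000, with 18 contacts (3.87 times). CXCL8 was thus at an anchor in all 4 libraries, while the loops listed there varied.

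CXCL3 was at an anchor of 1 and 3 loops with vehicle and 2 and 0 with THZ1. Its long loop to hub B spanned CXCL8, CXCL6, CXCL1 and CXCL5. It had 14 contacts in vehicle replicate 1 (4.54 times the expected count), 18 in vehicle replicate 2 (4.52 times) and 47 at 10 kb anchors in THZ1 replicate 1 (3.68 times). Vehicle replicate 2 also joined CXCL3 to hub G across CXCL2 with 71 contacts (2.84 times) and to hub H with 35 (3.46 times), and THZ1 replicate 1 joined it to chr4:74990001-75000000 with 41 (2.45 times). Since the THZ1 libraries held 2 and 0 of these loops, the conditions overlapped.

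EREG was at an anchor of 3 loops in vehicle replicates 1 and 2 and in THZ1 replicate 1, and of 2 in THZ1 replicate 2. The 355 kb loop from hub T to hub U had 28 contacts in vehicle replicate 1 (7.03 times the expected count), 38 in THZ1 replicate 1 (7.00 times) and 41 in THZ1 replicate 2 (7.11 times), and vehicle replicate 2 listed it at chr4:75585001-75590000 with 36 (6.03 times). A 310 kb loop from hub T to chr4:75550001-75555000 had 35 contacts in vehicle replicate 1 (5.49 times) and 49 in vehicle replicate 2 (7.17 times), and THZ1 replicate 1 listed it at the neighbouring 5 kb with 36 (6.94 times). The short loop from hub S ended in different parts of EREG. With vehicle it ended at intronic hub T, 55 kb away, with 30 and 37 contacts (3.45 and 4.48 times), and with THZ1 at chr4:75230001-75235000, 45 kb away, with 41 and 22 contacts (3.70 and 2.25 times). The latter anchor holds the EREG start site at 75230862. Counting only anchors that contain a start site, EREG had 0 loops in both vehicle libraries and 1 in each THZ1 library. Of the 8 members, 3 had a loop at the start site in any library, and EREG was the 1 whose THZ1 counts were both above the vehicle counts, against 2.79% of 10706 protein-coding genes with such a loop (22.1% were below). By whole gene the EREG counts overlapped. The start-site anchor and hub T lie 10 kb apart from start to start, and the loops to them were counted as 1 locus called in all 4 libraries.

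AREG lay in a stretch that no anchor touched. Positions 75282465 to 75323487, which hold AREG, recur in GRCh37 at positions 75452280 to 75493261, where GENCODE places AREGB (75480629 to 75490486). The copies aligned in 2 pieces of 24.7 kb and 16.3 kb at 99.9% and 99.6% identity. No anchor of any list lay in either copy, and 20 cluster loops spanned both, 5 and 6 with vehicle and 5 and 4 with THZ1. Reads that match both copies equally well cannot be placed uniquely, and the part of this in the lack of anchors was not tested.

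Of the 35 loci, 9 were called in all 4 libraries (25.7%, against 24.7% of all loci). A further 12 were called in 3 libraries (34.3%, against 14.8%), 5 in 2 (14.3%, against 20.6%) and 9 in 1 (25.7%, against 39.8%). A loop could count for more than 1 locus when it lay within 20 kb of both. Loci listed by the 2 vehicle libraries and by no THZ1 library numbered 2 (5.71%, against 9.99% of all loci). This count moved with the matching distance, to 1 at 50 kb. It was 4 to 9 when a library was left out, which tends to raise it, since 1 list fewer has to hold or lack the locus. Of the 2 loci, the first joined RASSF6 at hub A with hub E over 330 kb, with 23 contacts (4.14 times the expected count) and 15 contacts (8.16 times). The second, 530 kb long, joined hub S with BTC at chr4:75710001-75720000 in vehicle replicate 1 (19 contacts, 4.36 times) and with chr4:75730001-75740000, beyond BTC, in vehicle replicate 2 (21 contacts, 4.83 times). THZ1 replicate 1 listed a loop from hub S to chr4:75725001-75750000 at 25 kb anchors (63 contacts, 2.17 times), and the 20 kb matching distance counted it with the loop of vehicle replicate 2 as a separate locus. The reverse, a locus listed by the 2 THZ1 libraries alone, occurred 0 times, against 2.39% of all loci. This 0 depended on the matching distance. At 10 kb the calls made 42 loci, 2 of them of both THZ1 libraries only, 3 of both vehicle libraries only and 6 of all 4 libraries. Loci of 1 library numbered 2 for vehicle replicate 1 (5.71%, against 10.5% of all loci), 4 for vehicle replicate 2 (11.4%, against 17.1%), 2 for THZ1 replicate 1 (5.71%, against 7.07%) and 1 for THZ1 replicate 2 (2.86%, against 5.09%).

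**Figure D4:**
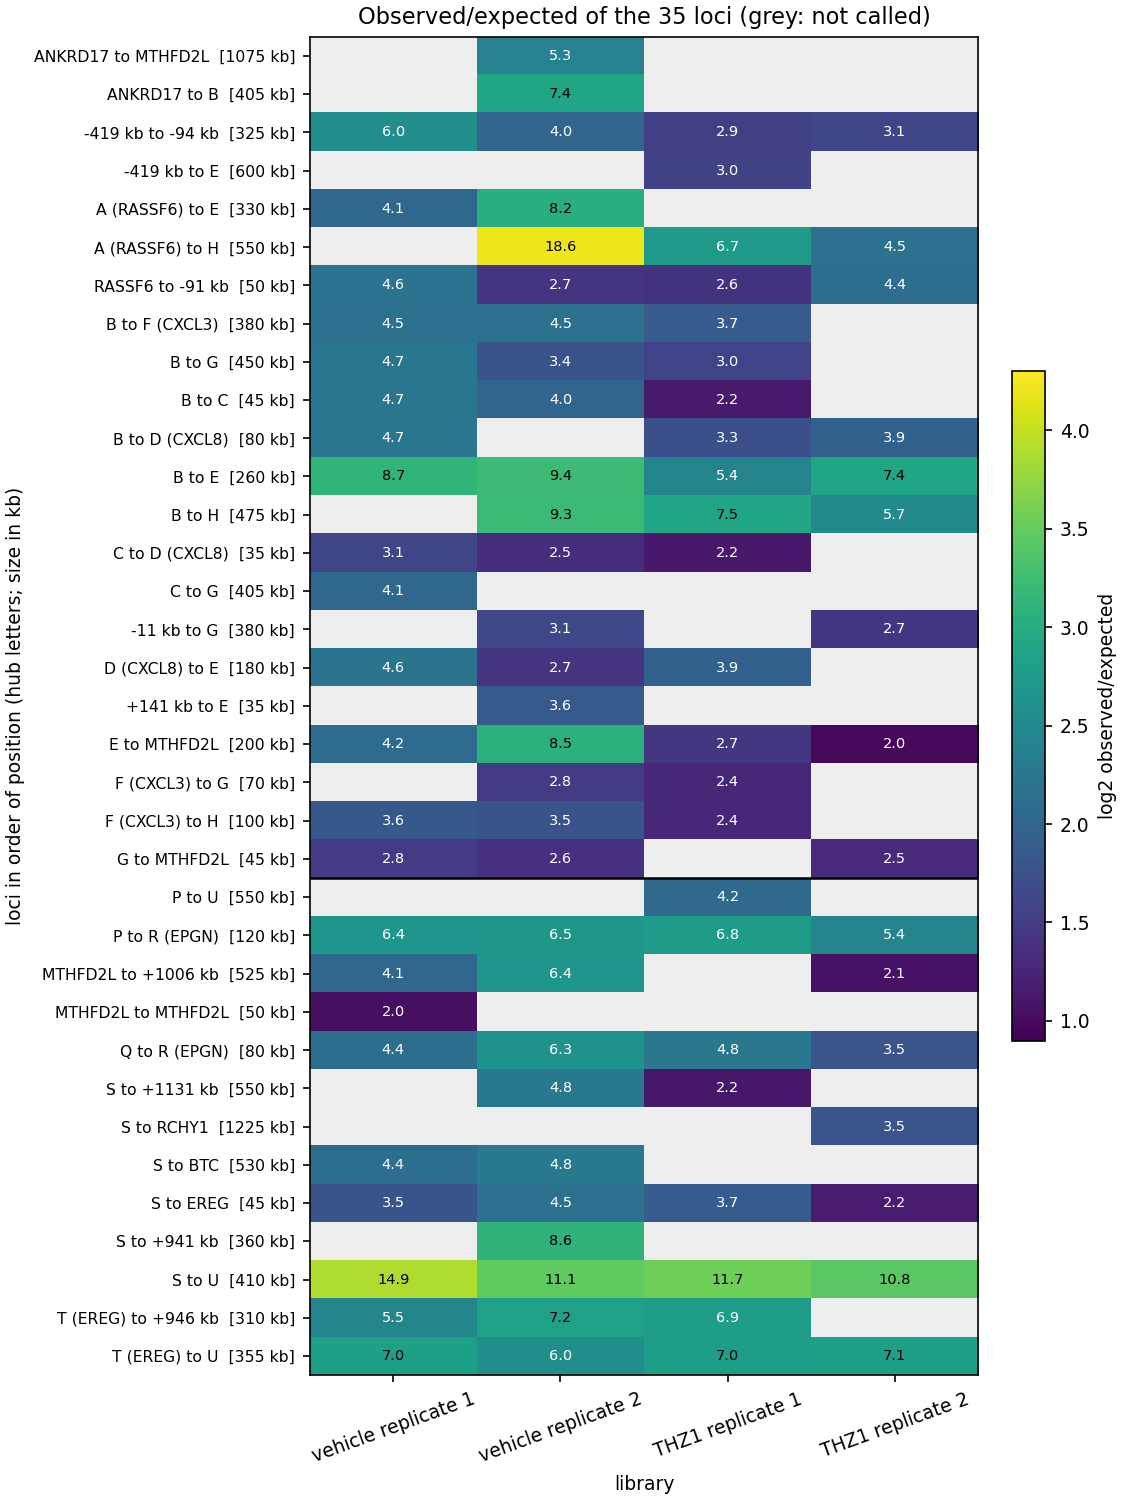
Observed/expected ratio of each of the 35 loci in the 4 libraries, in order of position, with grey where the library called no loop there, anchors named by hub letter, gene or distance from the CXCL8 start site in kb, and the loop size in kb. The black line separates the chemokine side from the EREG side. The 9 rows filled in all 4 columns lie on both sides, and the brightest row is the loop from hub S to hub U.

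The largest and the strongest loops were also on both sides. The largest loop was 530 kb in vehicle replicate 1 (hub S to BTC), 1075 kb in vehicle replicate 2 (the ANKRD17 and COX18 region to MTHFD2L, 24 contacts, 5.31 times the expected count), 600 kb in THZ1 replicate 1 (from a site before RASSF6, at chr4:74175001-74200000, to hub E, 52 contacts, 2.98 times) and 1225 kb in THZ1 replicate 2 (hub S to RCHY1, 35 contacts, 3.47 times). Each of these 4 loops except that of vehicle replicate 1 was listed in its library only. The smallest loop was the 35 kb loop from hub C to CXCL8 in vehicle replicate 1 and THZ1 replicate 1. In vehicle replicate 2 it shared that size with a loop from chr4:74745001-74750000, 7.98 kb beyond CXCL1, to hub E (24 contacts, 3.64 times). THZ1 replicate 2 had no loop under 45 kb.

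The loop from hub S to hub U, 410 kb long and spanning EREG and AREG, had the highest observed/expected ratio of the cluster in 3 of the 4 libraries. It had 32 contacts in vehicle replicate 1 (14.9 times the expected count), 39 in vehicle replicate 2 (11.1 times), 56 in THZ1 replicate 1 (11.7 times) and 38 in THZ1 replicate 2 (10.8 times), so the conditions overlapped. In vehicle replicate 2 the highest ratio, 18.6, belonged to the 545 kb loop from RASSF6 at hub A to hub H, which rested on 15 contacts against 0.808 expected. The same locus had 11 contacts (6.66 times) and 22 contacts (4.52 times) with THZ1.

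Over all cluster loops of a library, the median observed/expected ratio was 4.45 and 4.83 with vehicle and 3.69 and 3.67 with THZ1. Both THZ1 medians were below both vehicle medians (4.64 ± 0.266 against 3.68 ± 0.0134, SD, n = 2), a log2 difference of -0.33 (exact permutation p = 0.333). The medians over all loops were likewise lower with THZ1 and did not overlap, with means of 4.60 and 4.07. Ratios depended on anchor width. Among cluster loops with 5 kb anchors the medians were 4.61 and 6.48 with vehicle and 5.09 and 5.43 with THZ1, which overlapped (log2 difference -0.08, exact permutation p = 1). Among all loops with 5 kb anchors they were 5.27 and 5.20 with vehicle and 5.31 and 5.37 with THZ1. At the wider anchors the medians over all loops were lower with THZ1 without overlap, at 4.22 and 4.12 (vehicle) against 3.78 and 3.77 (THZ1) for 10 kb and at 3.03 and 2.97 (vehicle) against 2.81 and 2.79 (THZ1) for 25 kb. Loops with 25 kb anchors, more frequent with THZ1, had the lowest medians of the 3 widths over all loops.

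At the 9 loci called in all 4 libraries, the ratios of both THZ1 libraries were below those of both vehicle libraries at 3 loci, above at 0, and overlapped at 6. Among 8520 such loci of the genome, 50.2% were below and 5.68% above. The median log2 difference was -0.36 over the 9 loci and -0.36 over all 8520. All 3 lower loci were on the chemokine side. The 260 kb loop between hubs B and E spanned CXCL8, CXCL6 and CXCL1 and had 38 and 48 contacts with vehicle (8.73 and 9.42 times the expected count) and 34 and 42 with THZ1 (5.38 and 7.44 times). The loop that joined a site near the domain's first boundary with hub B or its flank had ratios of 6.00 and 4.01 with vehicle, at 10 kb anchors, and 2.93 and 3.06 with THZ1, at 25 kb anchors. Hub E and MTHFD2L were joined at ratios of 4.24 and 8.47 (vehicle) and 2.72 and 1.95 (THZ1), where the anchors were 10 kb, 5 kb, 10 kb and 25 kb wide in this order. For these last 2 loci, a change in strength and a change in anchor width cannot be told apart.

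All 5 shared loci of the EREG side overlapped between conditions. Hub P was joined to EPGN at hub R by 18 and 21 contacts with vehicle (6.43 and 6.52 times the expected count) and 33 and 24 with THZ1 (6.79 and 5.43 times). Hubs Q and R were joined at ratios of 4.35 and 6.28 (vehicle) and 4.81 and 3.46 (THZ1). The loops from hub S to EREG, from hub S to hub U and from hub T to hub U, described above, make up the other 3. On the chemokine side, the 50 kb loop between RASSF6 and hub B or its flank overlapped too, with ratios of 4.59 and 2.67 with vehicle and 2.63 and 4.36 with THZ1.

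**Figure D5:**
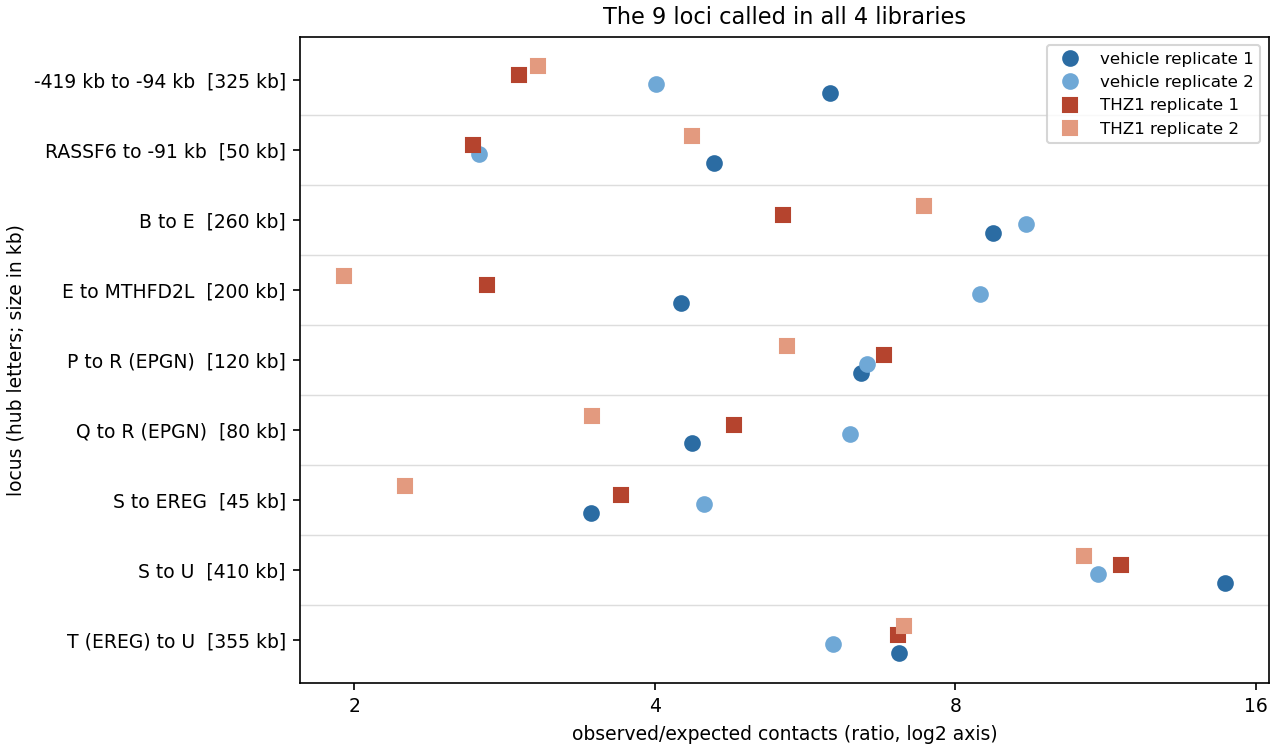
Observed/expected ratio (log2 axis) of the 9 loci called in all 4 libraries, 1 point per library (blue circles: vehicle; red squares: THZ1), with anchors named by hub letter, gene or distance from the CXCL8 start site and the loop size in kb. Both THZ1 points lie left of both vehicle points at 3 loci, and the loop from hub S to hub U lies farthest right.

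Loops with identical anchors in all 4 lists allowed a test of strength, with contact counts fitted by edgeR's quasi-likelihood test against the donut expected count. Over the genome 2618 such loops were tested, and at a Benjamini-Hochberg adjusted p of 0.05, 718 (27.4%) were lower and 1 (0.0382%) was higher with THZ1, a count that dropped to 0 without vehicle replicate 2, THZ1 replicate 1 or THZ1 replicate 2. With TMM scaling and no expected count the calls split into 108 lower and 67 higher. The cluster had 2 of these loops, and 0 were called by edgeR or by DESeq2 without the expected count. DESeq2 with the expected count gave neither loop an adjusted p. By edgeR 1 was at an unadjusted p under 0.05, against 41.6% of all tested loops. Between hubs B and E the log2 difference was -0.52 (SE 0.21, edgeR adjusted p = 0.0711), and it was -0.29 without THZ1 replicate 1 and -0.16 with TMM or -0.15 with DESeq2 size factors when the expected count was left out. Between hub P and EPGN it was -0.08 (SE 0.25, edgeR adjusted p = 0.855). With loci matched within 20 kb in place of identical anchors, 9 cluster loci were tested and 0 were called, as were 0 of 8507 over the genome. Their log2 differences ran from -1.37 for the loop from hub E to MTHFD2L (SE 0.38, edgeR adjusted p = 0.161) to 0.12 for the loop from hub T to hub U (SE 0.24, adjusted p = 0.777).

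Further genes were read from the same lists. They were 23 genes, namely the neighbours MTHFD2L and RASSF6, taken for their position, and genes of chemokines, EGF-family ligands, their receptors and NF-kB. An anchor touched 14 in at least 1 library (60.9%, against 71.3% of all protein-coding genes) and 9 in all 4 (39.1%, against 39.4%). Loop counts of both THZ1 libraries were below both vehicle counts for 4 of those 14 genes (MTHFD2L, EGFR, TGFA and RELA) and above for 1 (NFKB1), against 24.3% and 3.47% of the 14386 protein-coding genes with a loop in any library. Among neighbours in the window, MTHFD2L had 9 and 13 loops with vehicle and 8 and 8 with THZ1, EPGN had 3 in every library, and RASSF6 had 2 and 3 with vehicle and 2 and 2 with THZ1. PF4, PF4V1 and PPBP had 0. The interferon-inducible chemokine genes CXCL9, CXCL10 and CXCL11, which form a separate group on chromosome 4, had 0 loops in any library, and the nearest anchor lay 2.43 kb from CXCL9. The genes of the chemokine receptors, CXCR1 and CXCR2, also had 0. CXCL12, whose product binds CXCR4, had 2 loops in every library, and CXCL13, a chemokine for B cells, had 3 and 4 with vehicle and 5 and 4 with THZ1. EGFR, the gene of the receptor for EREG and AREG, had 12 and 13 loops with vehicle and 7 and 3 with THZ1, without overlap. TGFA, another EGFR ligand gene, had 3 and 5 with vehicle and 1 and 2 with THZ1, also without overlap. EGF itself had 4 and 5 loops with vehicle against 3 and 5 with THZ1. Of the NF-kB genes, NFKB1 had 0 and 1 loops with vehicle against 2 and 2 with THZ1, and RELA had 1 and 1 against 0 and 0. These gene counts move with the length of a gene and with the size of each list, and their differences were not tested.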

How the data were processed

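Hi-C (Arima-HiC) was measured in MDA-MB-231 cells, 2 vehicle and 2 THZ1 libraries. Per the labels' processing notes the reads were processed with Juicer 1.6 on hg19, and the deposited lists name juicer_tools 1.19.02. The settings of HiCCUPS and Arrowhead are not given in the sources used here. The authors listed for each loop the whole-number count of contacts at its peak, without normalization. Beside it they deposited the expected contacts, a signal in the same unit drawn from 4 neighborhoods, and a q-value for each, at most 0.0997. The score deposited with a domain is the one Arrowhead gives its corner. The authors' tables of condition-unique loops hold their own comparison and were not used. Sequencing depth is not in the lists. The paper gives read depth only as a range over the samples, so the libraries differed in depth and loop counts were not adjusted for it. Contact counts of cluster loops ran from 11 to 107.

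Loop size was the distance between anchor starts. Ratios are observed over donut expected contacts. Conditions were compared by the exact two-sided permutation test (6 splits). Loops were gathered into loci greedily from the most contacts, within 20 kb at both midpoints. On 2000 simulated loci, 100% of the library patterns were recovered. These loci lay far apart and had 5 kb anchors only. The figure therefore does not carry over to the cluster, where loci are crowded and anchors differ in width. Strength was tested with edgeR 4.0.16 in R 4.3.3 (log donut expectation as offset) on loops with an expected count of at least 0.1 in every library. Of 2624 loops 6 were left out. In counts simulated on these loops, 68% of 2-fold and 26% of 1.5-fold changes were recovered, and 6% of calls were false. SE is the log2 difference over the root of the F statistic. Genes were taken from GENCODE 44 (lifted to GRCh37), promoters from RefSeq, copies from BLAST 2.17.0. Python 3.11.15, numpy 2.4.6, pandas 2.3.3, scipy 1.17.1 and matplotlib 3.10.9 were used.

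The members, gene lists and comparisons were chosen with earlier results of these data known. Named were the 8 genes, the other protein-coding genes of the window and its anchors, a list of 23 further genes (window neighbours and genes of chemokines, EGF-family ligands, their receptors and NF-kB), every locus called in all 4 libraries or in both libraries of 1 condition only, every loop at a named gene, and the largest, smallest and strongest loop per list. The gap, the hubs and the setting of cluster loops against all loops of the same anchor width were chosen after seeing the data. Alternatives were other anchor widths, windows, FDR limits, expectations, matching distances and tools, and leaving out each library.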

Additional observations from a re-analysis of the deposited data

How the results depend on the processing

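Each value below is THZ1 against vehicle, on the log2 scale unless a count or percentage points are named. The lower number of cluster loops held its direction under every alternative (-0.67 to -0.21 when a library was left out) except with 25 kb anchors alone (2.81). The share of all loops, 0.05 in the main comparison, turned to -0.58 with 10 kb anchors alone and ran from -0.087 to 0.18 without single libraries. The median size, 0.08, turned to -0.66 with 5 kb anchors alone and ran from -0.11 to 0.29. The share of loops of 90 kb or less, 0.108 percentage points, was 7.40 with 5 kb anchors alone, 5.83 with 10 kb anchors alone and 1.69 with both anchors in the window, and ran from -0.284 to 0.50 without single libraries. These 3 had no settled direction. The median observed/expected ratio was lower with THZ1 under all 11 alternatives run, from -0.39 to -0.08. Loci of both vehicle libraries only numbered 1 at a matching distance of 50 kb and 4 to 9 without single libraries, loci of both THZ1 libraries only numbered 2 at 10 kb and 1 to 2, and loci called in every remaining library numbered 10 to 16, since with 3 libraries a locus has fewer lists to be found in. The median strength of the 2 tested loops turned to 0.20 with TMM and 0.21 with DESeq2 size factors when the expected count was left out, and the loop from hub P to EPGN turned to 0.56 in each and ran from -0.25 to 0.067 without single libraries, while that from hub B to hub E was -0.16 and -0.15 and ran from -0.76 to -0.29. The count of called loops over the genome was 719 with edgeR, 175 with TMM and no expected count (108 lower, 67 higher), 55 with DESeq2 and the expected count, 0 with DESeq2 without it (118 at an unadjusted p under 0.05), and 0 to 216 without single libraries, while 0 cluster loops were called under any of them. DESeq2 with the expected count gave neither cluster loop an adjusted p, so it could not call them. With the replicate number as a block, 769 loops were called and the median of the 2 cluster loops was -0.29 (edgeR adjusted p = 0.0766 for the loop from hub B to hub E). Deviations of libraries with the same number correlated at 0.019, so the numbers were not taken to pair the libraries. With the stricter letters, where GG replaces the second pair of free bases, 0 of 62 cluster anchors held these letters, against 5.09% of all anchors. This 0 covers that 1 form only, since the matches in cluster anchors described above have other bases at that pair. With 25 kb anchors alone no median could be given, because vehicle replicate 1 had no such loop, and no domain of the cluster reached the median corner score or lay within the window.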
